A study of Homo sapiens with 6 samples.

Results

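The mitochondrial ribosomal proteins described here are the genes whose symbols begin with MRPL or MRPS followed by a number, taken as protein-coding rows of the deposited count table. The symbols gave 77 such genes among 34371 rows. The cells were ME-1, a line established from human acute myeloid leukaemia with the CBFB::MYH11 fusion gene. One group of 3 libraries came from ME-1 cells transduced with a vector that overexpresses SPNS2, an exporter of sphingosine-1-phosphate, and the other 3 came from ME-1 cells transduced with the empty vector. All 6 libraries therefore share the line, the fusion, transduction with a vector and a selection step, and polyadenylated RNA was sequenced from each. The comparison asks what the added SPNS2 did to the transcripts of this family.

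Mitochondria keep a small genome and translate its few messenger RNAs on a ribosome of their own. The RNA of this ribosome is made inside the organelle, while its proteins are encoded in the nucleus, made in the cytosol and imported. Some of these proteins descend from bacterial ribosomal proteins and carry names with u or b (uS2m, bL12m), and others were added in the mitochondrial lineage and carry names with m (mS34, mL46). The ribosome makes core subunits of the respiratory chain, and inhibition of mitochondrial translation is a known vulnerability of acute myeloid leukaemia cells.

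Library totals lay between 31361562 and 33540256 counts with SPNS2 and between 28605187 and 38489992 counts with the empty vector, and a gene with no count in a library could still have reached 0.0779 to 0.105 CPM there, counting error only. CPM express a gene's count on a fixed scale of the library total, here after scaling by the trimmed mean of M values (TMM). The vector copy of SPNS2 had 780, 789 and 764 CPM in the SPNS2 libraries and 0.233, 0.105 and 0 CPM in the empty vector libraries. Of 10 myeloid leukaemia markers 9 could be tested. MPO dominated their sum, which was 28490 to 29930 CPM with SPNS2 and 28620 to 29180 CPM with the empty vector. Among the 9, 4 fell (CD33, CD34, LYZ and PRTN3, with log2 fold changes of -0.71, -0.25, -0.32 and -0.17) and KIT rose (0.55), while AZU1 had counts in SPNS2 library 2 alone. Erythroid and fibroblast markers summed to at most 0.216 CPM in every library and T cell markers to at most 1.08 CPM. B cell markers summed to 7.37 to 7.65 CPM with SPNS2 and 6.53 to 7.32 CPM with the empty vector, and epithelial markers, mostly EPCAM (0.19), to 140.7 to 143.5 CPM with SPNS2 and 119.3 to 127.6 CPM with the empty vector. The part of these markers in the results was not tested. Whether the libraries of a group stem from separate cultures is not in the labels, and p-values thus cover only the spread among these libraries, possibly a technical one. In bulk RNA, a smaller share of cells of 1 state and less RNA per cell cannot be told apart.

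Most genes of the family had slightly lower levels with SPNS2, and none moved far. Of 76 tested genes, 14 fell, 1 rose and 61 missed the threshold of an adjusted p of 0.05 in edgeR's quasi-likelihood test with Benjamini-Hochberg adjustment over all tested features. The 14 that fell are 18.4% of the family, where 12.6% of the 13308 tested features fell. The 1 that rose stands against 11.9% of features, so that 19.7% of the family and 24.5% of all features passed in either direction. The median log2 fold change was -0.06 over the family and 0.00 over all tested features, and 55 genes of the family (72.4%) had a log2 fold change below 0, against 49.3% of all tested features. The changes ran from -0.23 for MRPL11 to 0.22 for MRPS33. None of the 76 went beyond 0.25 in either direction on the log2 scale, a size that 2600 features (19.5%) passed.

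**Figure D1:**
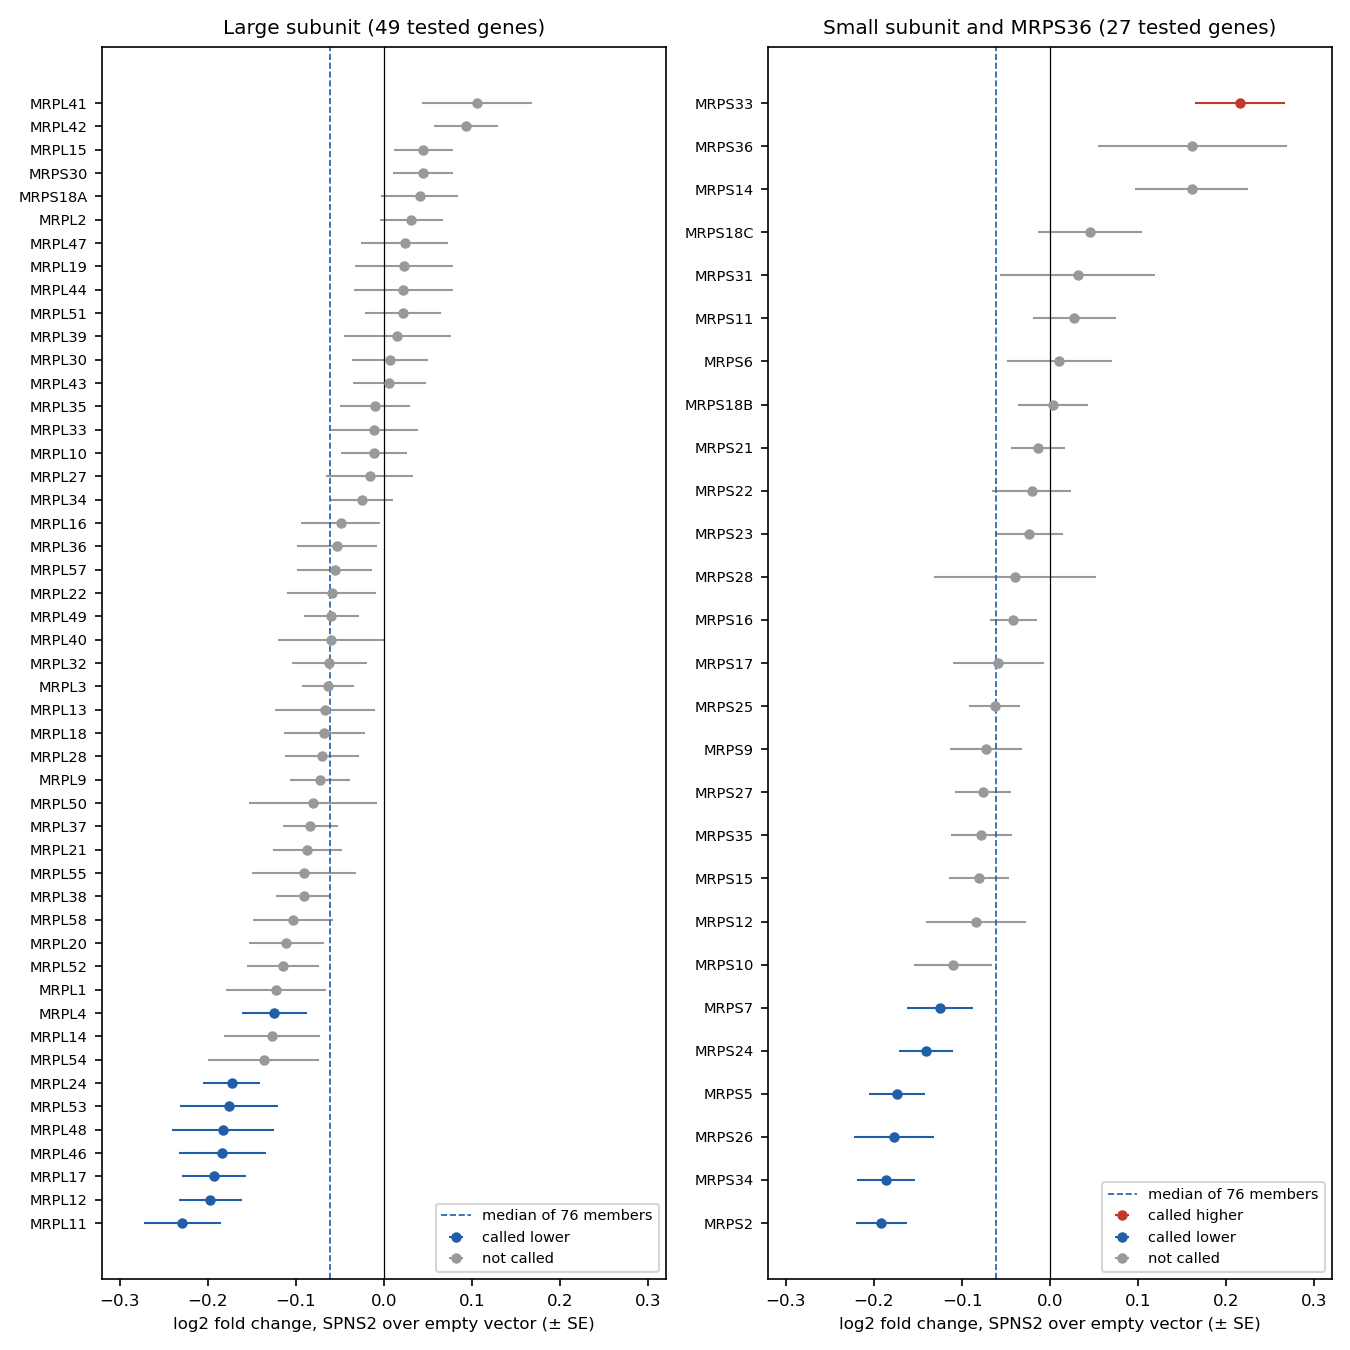
Log2 fold change (SPNS2 over empty vector) ± SE of each tested gene, large subunit genes on the left and small subunit genes with MRPS36 on the right; blue marks genes called lower, red the gene called higher and grey those not called. The dashed line is the median of the 76 genes, -0.06, and every gene lies between -0.23 and 0.22.

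The libraries themselves show how narrow the shift was. Added over the family, transcripts made up 3376, 3312 and 3405 CPM in the SPNS2 libraries and 3481, 3546 and 3567 CPM in the empty vector libraries. Every SPNS2 library was below every empty vector library, and the means of 3364 ± 47.3 CPM and 3531 ± 44.9 CPM (SD, n = 3 each) differed by -4.73%. An exact permutation test on these sums gave a two-sided p of 0.1, the smallest p possible with these 6 libraries. For single genes, the values of the groups did not overlap in 28 genes that were lower (20.3% of all tested features did so) and in 4 that were higher (19.8% of all tested features), and they overlapped in the other 44. In either direction, 40.1% of all tested features had groups that did not overlap. The median coefficient of variation of a gene among the 3 libraries of a group was 3.33% with SPNS2 and 3.03% with the empty vector.

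Both subunits had medians below 0. Of 49 tested genes of the large subunit 8 fell and 0 rose with edgeR, with a median log2 fold change of -0.06, and 16 of them had an unadjusted p under 0.05, where 36.2% of all tested features had one. Of 26 genes of the small subunit 6 fell and 1 rose, also with a median of -0.06, and 12 had an unadjusted p under 0.05. Proteins with a bacterial counterpart had 9 genes lower (20%) and 0 higher of 45, and mitochondria-specific ones had 5 lower (16.7%) and 1 higher of 30. The median was -0.06 in both of these classes. In the large subunit 16.3% of genes fell and in the small subunit 23.1%. Across all tested features 12.6% fell and 11.9% rose.

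The small subunit gene with the smallest p was MRPS2, which encodes uS2m, a counterpart of a bacterial protein on the back of the small subunit. It had 59.0, 59.0 and 59.1 CPM with SPNS2 against 66.6, 67.9 and 67.8 CPM with the empty vector. The SPNS2 values were almost identical and lay below all others (log2 fold change -0.19 ± 0.03 SE, edgeR adjusted p = 0.000822). MRPS34, which encodes the mitochondria-specific mS34 needed for a stable small subunit, had 84.0, 81.8 and 86.9 CPM with SPNS2 against 97.3, 96.5 and 93.7 CPM with the empty vector. The groups were apart (-0.19 ± 0.03, edgeR adjusted p = 0.00194). MRPS5, whose product uS5m lies beside the channel by which messenger RNA enters bacterial ribosomes, had 58.8, 61.8 and 60.2 CPM with SPNS2 against 68.9, 67.7 and 67.3 CPM with the empty vector, with no overlap (-0.17 ± 0.03, edgeR adjusted p = 0.0024). MRPS24, which encodes uS3m of the same channel, had 69.4, 70.4 and 72.5 CPM with SPNS2 against 77.2, 79.5 and 77.7 CPM with the empty vector. Its change was the smallest of this group of genes (-0.14 ± 0.03, edgeR adjusted p = 0.00702), and a row for the URGCP-MRPS24 readthrough held only 9 counts in all libraries. MRPS26, encoding the mitochondria-specific mS26, had 48.8, 46.9 and 51.8 CPM with SPNS2 against 52.8, 56.7 and 57.6 CPM with the empty vector. The highest SPNS2 value came close to the lowest empty vector value (-0.18 ± 0.05, edgeR adjusted p = 0.0152), and the call was lost without SPNS2 library 1 or 2 or empty vector library 2 or 3, with an adjusted p between 0.00403 and 0.0646 over all alternatives, which use edgeR, DESeq2 or limma voom.

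In the large subunit, MRPL12 and MRPL11 sit at the stalk region that calls translation factors to the ribosome. MRPL12 encodes bL12m, the protein of the stalk itself. It had 137, 142 and 152 CPM with SPNS2 against 166, 166 and 162 CPM with the empty vector, so the groups were apart although SPNS2 libraries spread more widely (log2 fold change -0.20 ± 0.04, edgeR adjusted p = 0.00244). MRPL11, encoding uL11m at the stalk base, had 50.3, 45.8 and 50.04 CPM with SPNS2 against 55.0, 59.2 and 57.3 CPM with the empty vector. This was the largest fall of the family (-0.23 ± 0.04, edgeR adjusted p = 0.00307). MRPL10, which encodes uL10m and anchors the bL12m copies, had 58.1, 61.6 and 62.2 CPM with SPNS2 against 59.0, 62.3 and 62.3 CPM with the empty vector, and the groups overlapped (-0.01 ± 0.04, edgeR adjusted p = 0.86). The difference between MRPL10 and its neighbours was not tested.

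Elsewhere in the large subunit, MRPL24 (uL24m, in bacteria a protein that starts assembly) had 47.3, 47.4 and 49.1 CPM with SPNS2 against 53.7, 54.9 and 53.7 CPM with the empty vector. The groups were apart by several CPM (log2 fold change -0.17 ± 0.03, edgeR adjusted p = 0.00283). MRPL17 (bL17m, near the exit of the peptide tunnel in bacteria) had 40.4, 38.0 and 40.6 CPM with SPNS2 against 45.3, 46.2 and 44.7 CPM with the empty vector, again with no overlap (-0.19 ± 0.04, edgeR adjusted p = 0.00305).

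MRPS33 was the one gene that rose. It encodes mS33, a small mitochondria-specific protein of the small subunit, and is listed as ENSG00000090263.16. It had 27.9, 28.7 and 28.1 CPM with SPNS2 against 24.1, 25.9 and 22.9 CPM with the empty vector. All SPNS2 values were above all empty vector values (log2 fold change 0.22 ± 0.05, edgeR adjusted p = 0.0108). MRPS14, encoding uS14m, and MRPS36 had the next highest estimates. MRPS14 had 16.6, 16.6 and 17.3 CPM with SPNS2 against 14.6, 14.2 and 16.4 CPM with the empty vector, without overlap but with a wide spread in the controls (0.16 ± 0.06, edgeR adjusted p = 0.0926). Without empty vector library 3 it passed (0.23, edgeR adjusted p = 0.0245), and its adjusted p ran from 0.0245 to 0.226 over all alternatives (edgeR, DESeq2 and limma voom). MRPS36 is now known as a subunit of the oxoglutarate dehydrogenase complex in spite of its symbol. It had 7.96, 8.31 and 9.67 CPM with SPNS2 against 6.90, 8.71 and 7.67 CPM with the empty vector, which overlap (0.16 ± 0.11, edgeR adjusted p = 0.315).

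**Figure D2:**
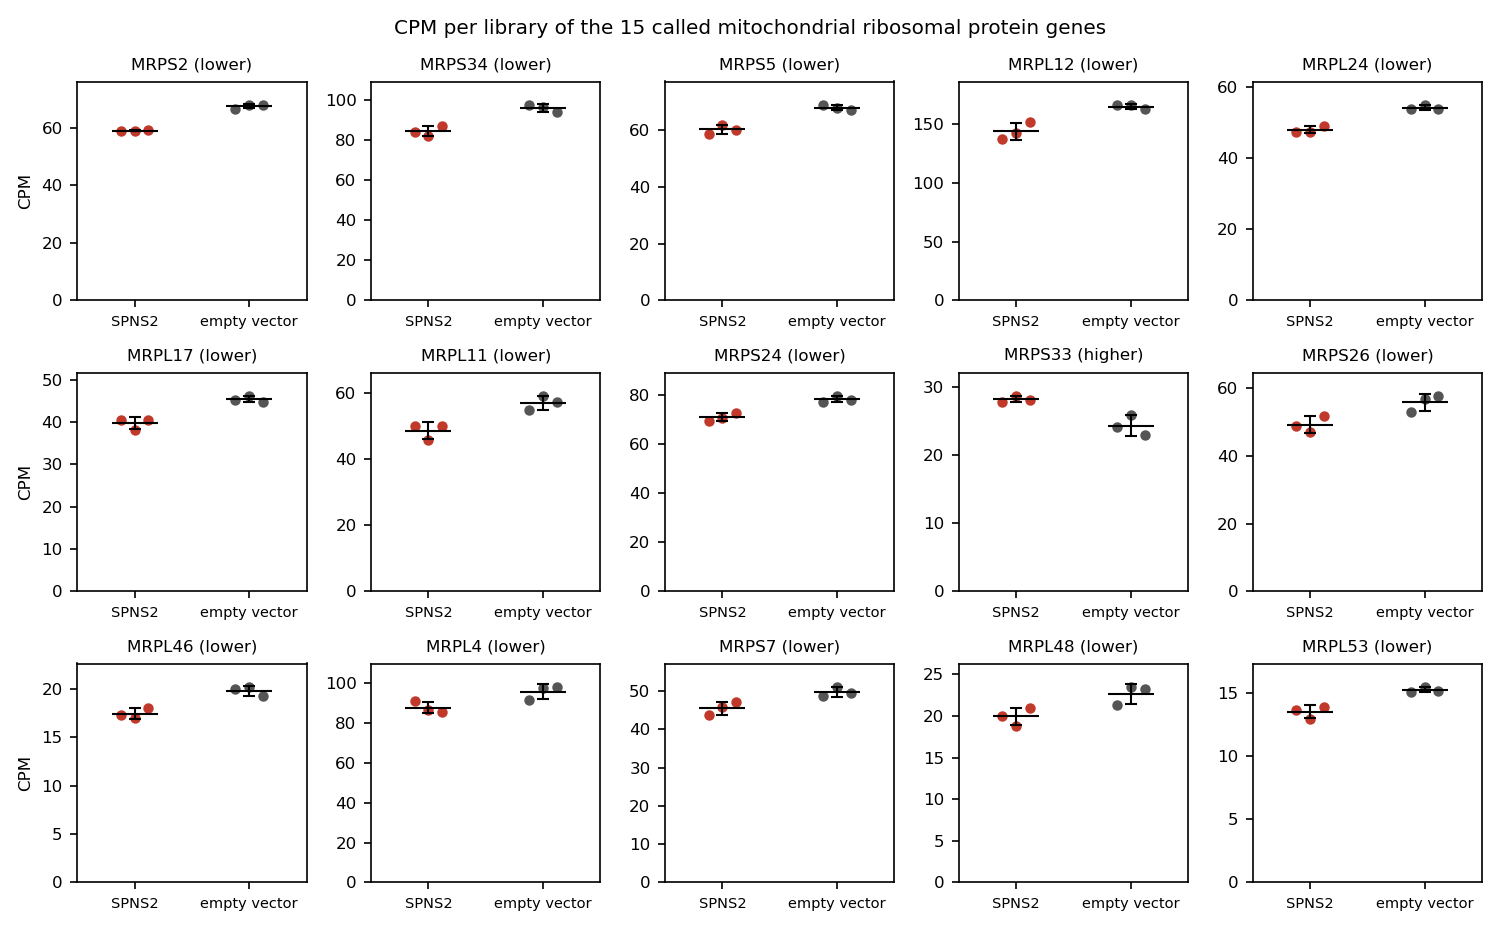
CPM of the 15 genes that passed the test in each library (points), with mean and SD of 3 libraries, SPNS2 on the left of each panel and the empty vector on the right; axes start at 0. MRPS2 has 59.0 to 59.1 CPM with SPNS2 and 66.6 to 67.9 CPM with the empty vector, and MRPS33 is the only panel in which the SPNS2 points are higher.

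Another 5 genes fell with larger p, and they are named here after their values were seen. MRPL46 (mL46) averaged 17.5 ± 0.553 CPM with SPNS2 and 19.8 ± 0.504 CPM with the empty vector (SD, n = 3 each; edgeR adjusted p = 0.0205). MRPL4, whose product uL4m lines the peptide tunnel, averaged 87.7 ± 2.73 and MRPS7, whose product uS7m lies in the head of the small subunit, 45.5 ± 1.70 CPM with SPNS2, against 95.6 ± 3.68 CPM for MRPL4 and 49.7 ± 1.24 CPM for MRPS7 with the empty vector (edgeR adjusted p = 0.0299 and 0.0321). MRPL48 (mL48) and MRPL53 (mL53) each had an edgeR adjusted p of 0.0396 and a log2 fold change of -0.18.

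How many genes fell depended on single libraries, while the direction of the 15 genes that passed did not. The count of 14 lower genes became 9 without SPNS2 library 1, 8 without SPNS2 library 2 and 9 without empty vector library 3. It was 10 without empty vector library 2. Of the 15 genes that passed, 9 passed in each of 15 alternative analyses: MRPL11, MRPL12, MRPL17, MRPL24, MRPS2, MRPS5, MRPS24, MRPS33 and MRPS34. MRPL46 lost its call without SPNS2 library 1 or 2 and with DESeq2. MRPL4 lost it without library 2 or 3 of either group and with a replicate block. MRPS7 and MRPL48 lost it without SPNS2 library 1 or 2 or empty vector library 2 or 3, and with DESeq2 or upper quartile scaling. MRPL53 lost it whichever library was left out, and also with DESeq2, library totals, no filter, the replicate block or upper quartile scaling. All 15 kept their sign throughout, a weak check because they had passed with all 6 libraries. Genes that were not called could change sign when 1 library was left out, as MRPL19 did (log2 fold changes of -0.04 to 0.06).

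Several symbols do not tell where a protein sits. MRPS30 and MRPS18A encode mL65 and mL66 of the large subunit, and MRPS18B and MRPS18C encode mS40 and bS18m of the small subunit. MRPS18A, MRPS18B and MRPS18C are related proteins that sit at different places in the ribosome. MRPS18A averaged 31.1 ± 0.333 CPM with SPNS2 and 30.3 ± 1.29 CPM with the empty vector. MRPS18B averaged 59.2 ± 3.05 CPM with SPNS2 and 59.1 ± 1.19 CPM with the empty vector, and MRPS18C 16.5 ± 0.744 CPM with SPNS2 and 16.1 ± 0.786 CPM with the empty vector (SD, n = 3 each). None of these, nor MRPS30 (74.0 ± 1.90 CPM with SPNS2 and 71.8 ± 2.06 CPM with the empty vector), passed the test, and their log2 fold changes lay between 0.00 and 0.04.

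Although ribosomal proteins other than bL12m, the product of MRPL12, enter the particle in near equal numbers, their transcript levels differed widely. Per kilobase of the longest GENCODE 29 transcript, MRPL12 had the highest level, 140 ± 7.1 CPM per kb with SPNS2 and 160 ± 2.0 with the empty vector. MRPS34 followed with 81.0 ± 2.4 with SPNS2 and 92.2 ± 1.8 with the empty vector, and MRPL3 (uL3m, an early-assembling core protein in bacteria) had 79.9 ± 2.1 with SPNS2 and 83.6 ± 1.3 with the empty vector. At the low end stood MRPL46 with 3.14 ± 0.099 CPM per kb with SPNS2 and 3.57 ± 0.091 with the empty vector. MRPS31, with 4.06 ± 0.075 with SPNS2 and 3.97 ± 0.089 with the empty vector, and MRPL42, with 4.24 ± 0.065 with SPNS2 and 3.98 ± 0.17 with the empty vector, were next and did not differ in the empty vector libraries beyond their spread. The order depends on the length used. For MRPL42, the longest transcript has 15582 bases, and per kilobase of coding length it ranked 8 of the 76 tested genes. The 90th percentile of levels was 6.50 times the 10th per transcript length and 5.01 times per coding length, and the ranks on the scales had a Spearman correlation of 0.54 across the 76 genes, which are not independent replicates.

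**Figure D3:**
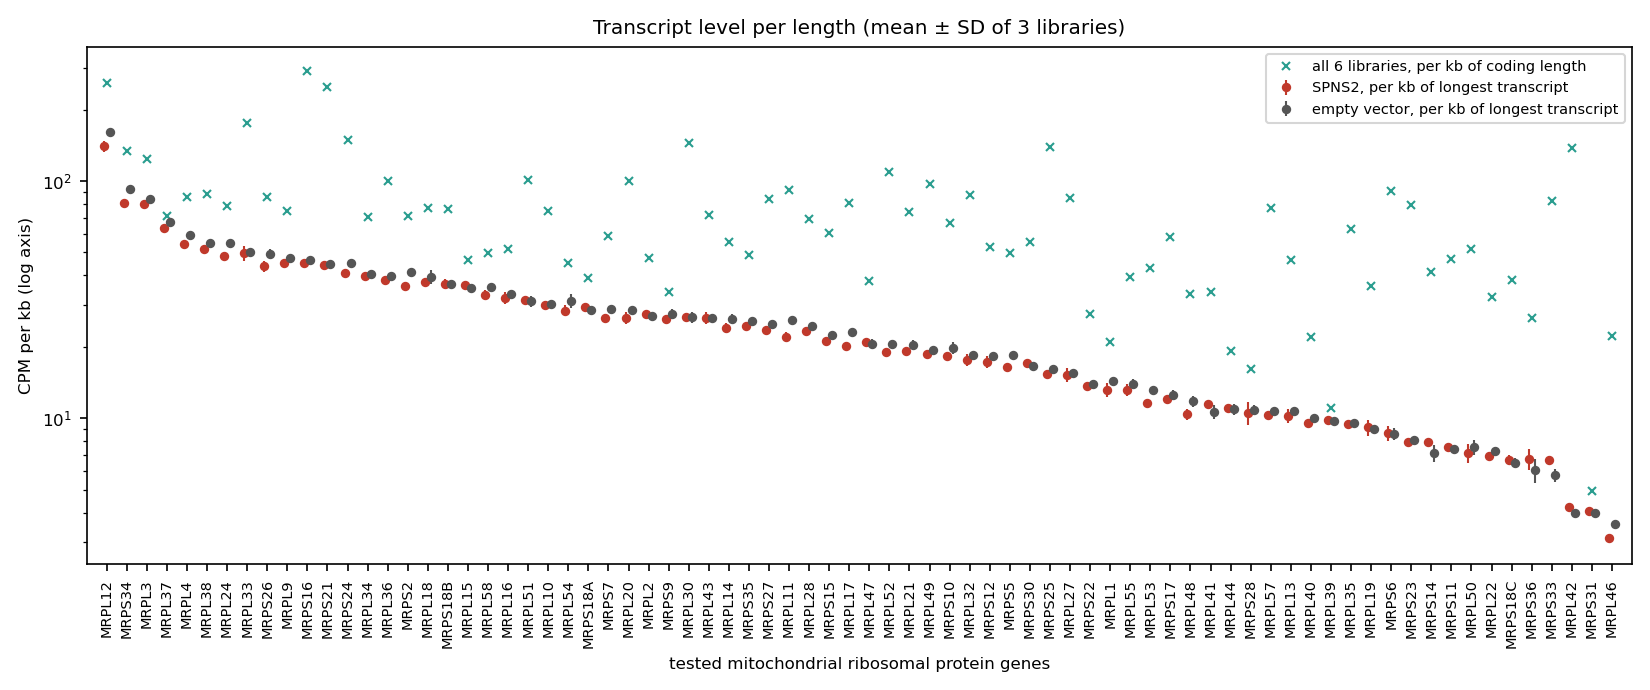
CPM per kb of each tested gene on a log axis, with mean ± SD of 3 libraries for SPNS2 (red) and the empty vector (grey) per longest transcript, and the mean of all 6 libraries per coding length (crosses). Levels per transcript run from 150 (MRPL12) to 3.35 (MRPL46) as means of all 6 libraries, and the order changes with the length used.

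A pair of genes could not be read well. MRPL45 (mL45, which tethers the ribosome to the inner membrane) had 0 counts in all 6 libraries and was not tested, and 2 rows annotated as its pseudogenes held 154 counts in all. The annotation behind the counts is not given, so the 0 does not show that the gene is silent. MRPS31 had 1156 counts over all libraries while 4 rows of its pseudogenes held 2362, so its level of 5.94 ± 0.110 CPM with SPNS2 and 5.80 ± 0.131 CPM with the empty vector (SD, n = 3 each) is uncertain. Over the whole family, pseudogene rows held 2649 counts against 678336 of the genes themselves (0.391%).

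The level and base composition of the genes moved with the calls. Genes that passed had a median level of 52.4 CPM and the others one of 38.6 CPM. The longest transcripts of genes that fell had a median GC content of 52.2%, against 46.8% in genes that did not pass and 48.5% in all tested features. Across the 76 genes the log2 fold change and GC content had a Pearson correlation of -0.36, and across 13259 features one of -0.09. The part of GC content in the calls was not tested. All 5 markers of proliferating cells (TYMS, TOP2A, MKI67, MCM2 and PCNA) fell, and their summed level was 1061 to 1069 CPM with SPNS2 and 1256 to 1296 CPM with the empty vector. Their part in the shift of the family was not tested.

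Promoters are shown for the genes that passed and hold an ETS or NRF1 motif, with that of MRPL12, the member of highest level, which has no match in its stretch. Further ETS matches of MRPS34, MRPL53 and MRPS33 lie outside the stretches shown. Each is the stretch just upstream of the RefSeq transcription start on GRCh38.p14, read 5′ to 3′ on the gene's strand, and capitals mark matches to CCGGAAG or its reverse complement (the core bound by ETS factors) or to the NRF1 motif (GCGC, any base, then TGCGC) or its reverse complement. MRPS34 lies at chr16:1773135-1773184 on the minus strand, MRPS26 at chr20:3045952-3046051 on the plus strand, MRPL48 at chr11:73787774-73787873 on the plus strand, MRPL53 at chr2:74472681-74472780 on the minus strand, MRPL17 at chr11:6683341-6683440 on the minus strand, MRPL12 at chr17:81703267-81703366 on the plus strand and MRPS33 at chr7:141014953-141015112 on the minus strand.
MRPS34: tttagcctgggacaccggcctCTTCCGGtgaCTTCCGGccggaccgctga
MRPS26: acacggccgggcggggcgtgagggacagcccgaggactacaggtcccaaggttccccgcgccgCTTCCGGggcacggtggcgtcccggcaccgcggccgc
MRPL48: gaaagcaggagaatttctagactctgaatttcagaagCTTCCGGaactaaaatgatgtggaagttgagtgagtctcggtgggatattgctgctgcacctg
MRPL53: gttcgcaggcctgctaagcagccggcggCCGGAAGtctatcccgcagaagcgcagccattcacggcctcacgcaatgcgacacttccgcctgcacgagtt
MRPL17: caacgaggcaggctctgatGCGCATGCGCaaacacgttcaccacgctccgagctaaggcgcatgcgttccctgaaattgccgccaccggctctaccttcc
MRPL12: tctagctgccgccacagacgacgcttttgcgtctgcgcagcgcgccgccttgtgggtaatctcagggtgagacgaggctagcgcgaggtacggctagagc
MRPS33: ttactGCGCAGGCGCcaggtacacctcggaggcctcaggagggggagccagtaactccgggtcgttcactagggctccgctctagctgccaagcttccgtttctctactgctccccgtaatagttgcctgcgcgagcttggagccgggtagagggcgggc

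ETS and YY1 motifs were common in the promoters of the family. RefSeq promoters of 300 bases (250 before to 50 after the start) were found for 69 of the 77 genes. CCGGAAG stood on either strand in 29 of them (42.0%), against 19.3% of 10090 promoters of tested protein-coding genes. AAGATGGCG, the core bound by YY1, stood in 13 (18.8%), against 4.01%. Both motifs stood in 4 promoters, with no overlap between them. The E-box CACGTG, bound by MYC and related factors, stood in 6 of the 69 promoters (8.70%) and in 1013 of the 10090, and the NRF1 motif in 11.6% of the family and 11.9% of tested genes. In the 150 bases nearest the start, the shares were 1.45% of the family and 6.05% of tested genes for the E-box, and 4.35% of the family and 8.39% of tested genes for the NRF1 motif. All motifs were searched on both strands. Among the 14 genes that fell, CCGGAAG stood in 4 (28.6%), AAGATGGCG in 2, the NRF1 motif in 1 and CACGTG in 0, and among the 53 not called, CCGGAAG stood in 24 (45.3%) and AAGATGGCG in 11. Such a match describes the letters in this window and is not evidence of binding. The median GC content was 60.3% in promoters of the family and 65.3% in those of tested genes.

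**Figure D4:**
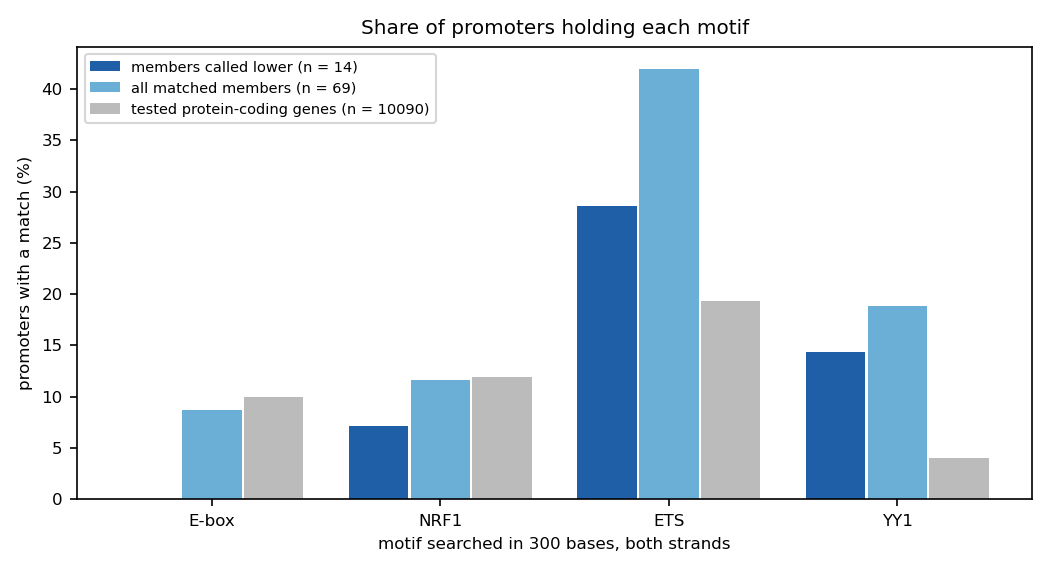
Percent of 300-base promoters with at least 1 match on either strand, for the 14 genes called lower, all 69 matched genes of the family and 10090 tested protein-coding genes. The ETS core stands in 42.0% of the family and 19.3% of tested genes, and the YY1 core in 18.8% and 4.01%.

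Some of these genes start close to a neighbour read in the opposite direction. A head-to-head partner with a start within 1000 bases was annotated for 18 of the 77 genes (23.4%) and for 10.7% of 12598 tested protein-coding genes. Among the 18 partners 4 fell and 1 rose, where 12.6% of all tested features fell and 11.9% rose. The 4 were TCP1, EME1, NDUFS6 and MRPL46, which is itself a gene of the family. MRPL46 and MRPS11 (uS11m) are partners of each other, with starts 34 bases apart, and were singled out after their values were seen. MRPL46 fell, while MRPS11 had a log2 fold change of 0.03 (edgeR adjusted p = 0.716). The log2 ratio of MRPL46 to MRPS11 was -0.60, -0.73 and -0.63 in the SPNS2 libraries and -0.45, -0.44 and -0.44 in the empty vector libraries. The ratio was lower in every SPNS2 library, and MRPL46 itself lost its call in some alternatives, as given above. MRPL47 (uL29m) and NDUFB5, a complex I subunit, have starts 36 bases apart. NDUFB5 rose (0.23, edgeR adjusted p = 0.00367) and MRPL47 had 0.02 (edgeR adjusted p = 0.776).

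Mitoribosomal proteins also include 5 with other kinds of symbol. All 5 had a log2 fold change below 0 and 2 of 5 fell (40%), with a list median of -0.12. Of all tested features, 12.6% fell. DAP3, the GTP-binding protein mS29, had 120, 118 and 117 CPM with SPNS2 against 127, 127 and 130 CPM with the empty vector, with no overlap (-0.12 ± 0.03, edgeR adjusted p = 0.0115). GADD45GIP1, mL64 near the peptide exit, had 51.2, 50.4 and 50.2 CPM with SPNS2 against 55.0, 53.6 and 58.7 CPM with the empty vector (-0.14 ± 0.04, edgeR adjusted p = 0.0197). Its call was lost without SPNS2 library 2 or 3 or empty vector library 3, and its adjusted p ran from 0.00968 to 0.0706 over all alternatives (edgeR, DESeq2 and limma voom). PTCD3 (mS39, at the messenger RNA entry) had a log2 fold change of -0.07, CHCHD1 (mS37) of -0.12 and AURKAIP1 (mS38) of -0.07, and none of these passed.

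Genes that build and serve the mitoribosome were mixed. Of 28 assembly factors 2 fell and 2 rose (7.14% each), with a median log2 fold change of -0.04. Of all tested features, 12.6% fell and 11.9% rose. NOA1, a GTPase needed for small subunit assembly, had 206, 196 and 202 CPM with SPNS2 against 171, 172 and 169 CPM with the empty vector (0.24 ± 0.03, edgeR adjusted p = 0.000127), opposite in direction to most subunits. RPUSD3, a pseudouridine synthase family protein, fell (-0.14, edgeR adjusted p = 0.0079), as did METTL17 (-0.11, edgeR adjusted p = 0.024), which lost its call without SPNS2 library 1 or 2 or empty vector library 3. YBEY, a factor of small subunit maturation, rose as well, with 1.96 to 2.10 CPM with SPNS2 against 1.40 to 1.58 CPM with the empty vector (0.49, edgeR adjusted p = 0.0378), and lost its call whichever library was left out. Of 16 translation factors 2 fell (12.5%) and 0 rose. TUFM, the elongation factor that brings aminoacyl-tRNA, had 401, 394 and 411 CPM with SPNS2 against 459, 463 and 451 CPM with the empty vector (-0.19 ± 0.02, edgeR adjusted p = 0.000365). GFM1, the translocation factor, passed narrowly (-0.16, edgeR adjusted p = 0.0498), and leaving out any library other than empty vector library 3 ended its call. Without empty vector library 1, 1 translation factor rose.

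Of 19 tested genes in the list of mitochondrial tRNA synthetases 15.8% fell, 0 rose and 16 missed the threshold. Across all tested features 12.6% fell and 11.9% rose. The median log2 fold change of the synthetase list was -0.007. AARS2 and TARS2, which charge alanine and threonine tRNAs, were among those that fell. AARS2 had a log2 fold change of -0.21 (edgeR adjusted p = 0.00304) and TARS2 one of -0.18 (edgeR adjusted p = 0.00803). Of 24 genes of mitochondrial transcription and RNA processing 2 fell (8.33%), TBRG4 with -0.13 and LRPPRC with -0.09, and MTERF2 rose (0.19). TBRG4 and LRPPRC both lost their calls without SPNS2 library 1 or 2, which left 0 lower genes in the list, and LRPPRC also without SPNS2 library 3 or empty vector library 2 or 3. MTERF2 lost its call without SPNS2 library 1 or 2 or empty vector library 3.

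The messenger RNAs that the mitoribosome translates stayed close together in both groups. Of 13 mitochondrially encoded mRNAs 1 rose and 1 fell (7.69% each), and 11 missed the threshold. Across all tested features 12.6% fell and 11.9% rose. The median log2 fold change of the 13 mRNAs was 0.00. MT-CO1, a complex IV subunit, had 14462, 14800 and 14611 CPM with SPNS2 against 13040, 13746 and 13882 CPM with the empty vector (0.11 ± 0.02, edgeR adjusted p = 0.00424). MT-ND6, the complex I subunit read from the other strand than the rest, had 97.5, 104 and 110 CPM with SPNS2 against 140, 118 and 125 CPM with the empty vector (-0.30 ± 0.06, edgeR adjusted p = 0.0044). It had the lowest level of the 13 mRNAs. The libraries were made from polyadenylated RNA, and the part of that selection in the MT-ND6 level was not tested. The sum of the 13 mRNAs was 57028 ± 794 CPM with SPNS2 and 55820 ± 2937 CPM with the empty vector (SD, n = 3 each), a difference below the spread of the controls (exact permutation test, two-sided p = 0.8, where 0.1 is the smallest p possible). Empty vector library 1 was the lowest at 52471 CPM, and without it 4 mRNAs were called lower. Without SPNS2 library 2, 2 were called lower. Among the other 11, MT-ND2, MT-ND4L and MT-ND5 had log2 fold changes of -0.07, -0.07 and -0.05, MT-CO2 and MT-ND3 had 0.06 and 0.07, and MT-CYB, MT-CO3, MT-ND1, MT-ND4, MT-ATP6 and MT-ATP8 lay between -0.01 and 0.04.

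**Figure D5:**
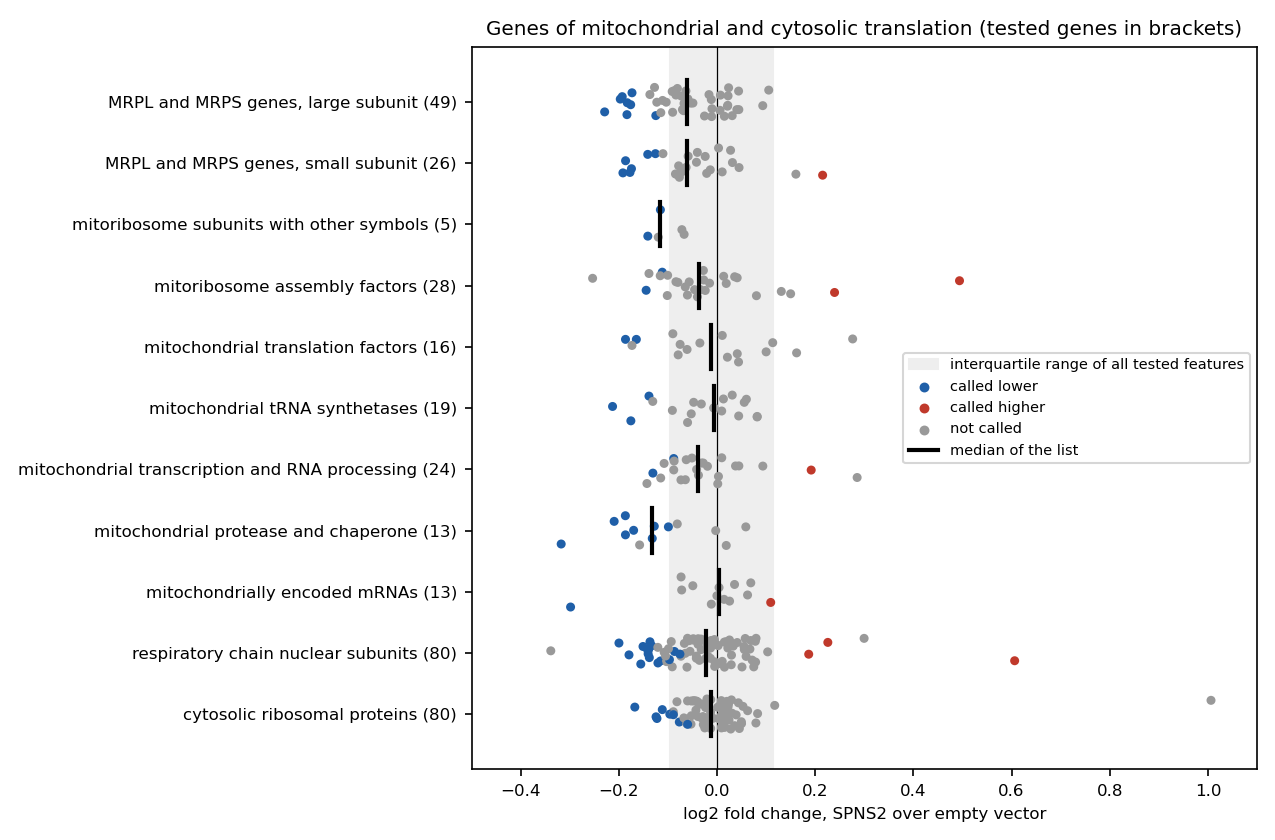
Log2 fold change (SPNS2 over empty vector) of each tested gene of the family by subunit and of related lists, with the number tested in brackets; black bars are medians and the grey band is the interquartile range of all tested features. The medians of both subunits lie at -0.06, that of mitochondrial proteases and chaperones at -0.13 and that of the cytosolic ribosomal proteins at -0.01.

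Mitochondrial proteases and chaperones had the largest share of lower members among the lists of mitochondrial and cytosolic translation shown in the plot of lists. Of 13 such genes 8 fell (61.5%) and 0 rose, with a median log2 fold change of -0.13, where 12.6% of all tested features fell. LONP1, the matrix protease, had 228, 239 and 235 CPM with SPNS2 against 297, 291 and 288 CPM with the empty vector (-0.32 ± 0.03, edgeR adjusted p = 1.94e-05). HSPA9 and TRAP1, chaperones of the matrix, both had a log2 fold change of -0.19, with edgeR adjusted p = 0.000185 and 0.00087. MYC, a transcription factor of ribosome and mitochondrial genes, had 569, 569 and 558 CPM with SPNS2 against 639, 656 and 627 CPM with the empty vector (-0.18 ± 0.02, edgeR adjusted p = 0.000367). Of the 10 genes in the MYC network list 2 fell (20%) and 1 rose (10%). The latter, MLXIP, lost its call without SPNS2 library 2 or 3 or empty vector library 2. Of 8 tested genes in the list of mitochondrial biogenesis regulators 2 fell (25%), TFDP1 with -0.15 and PPRC1 with -0.10. TFDP1 encodes a partner of E2F cell cycle factors and is not an established regulator of this kind. PPRC1 lost its call without SPNS2 library 1 or 3 or empty vector library 2.

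The cytosolic ribosome gives a comparison by a different set of genes. Of 80 tested cytosolic ribosomal proteins 8 fell (10%) and 0 rose, and their median log2 fold change was -0.01. Of all tested features, 12.6% fell and 11.9% rose. The RPL8, RPSA and RPLP2 genes had the smallest p, with log2 fold changes of -0.12, -0.12 and -0.17. The count that fell was 4 without empty vector library 3 and 5 without SPNS2 library 2 or 3 or empty vector library 2, and 1 rose without SPNS2 library 3 and 2 without empty vector library 3. Of 80 tested nuclear-encoded respiratory chain subunits, which join products of the mitoribosome, 15 fell (18.75%) and 3 rose (3.75%), with a median of -0.02. In the family, 18.4% fell. The count of these subunits that fell was 9 without SPNS2 library 1 or empty vector library 3. NDUFB9 and NDUFS8 of complex I fell (-0.20 and -0.18) and COX6B1 of complex IV rose (0.19). The difference between these lists and the family was not tested.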

How the data were processed

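RNA was isolated with a QIAGEN kit and made into TruSeq stranded mRNA libraries, per the labels' protocols. The authors deposited estimated counts per gene, which are whole numbers, and the submitters' processing notes name Salmon; no source used here gives its version, the build or the annotation release. All 6 columns were used. Symbols came from a gene name table and GENCODE 29 for 29121 of 34370 Ensembl IDs, and lengths, GC content and neighbours from GENCODE 29. Promoters came from RefSeq on GRCh38.p14.

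Low counts were removed with filterByExpr (minimum count 10, minimum total 15). TMM factors were 0.993 to 1.01, and the test was edgeR 4.0.16 in R 4.3.3 (quasi-likelihood, group as the only term, Benjamini-Hochberg adjustment over 13308 features). The biological coefficient of variation was 4.32%. Genes were called at an adjusted p under 0.05. Standard errors are the size of the log2 fold change divided by the root of the F statistic. Replicate libraries differed beyond sampling noise (chi-square per degree of freedom 3.11 to 6.09), so none was a duplicate. The test was checked on simulated data.

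Alternatives changed the scaling, the filter, the test (DESeq2 1.42.0, limma voom 3.58.1), the design, the libraries, the promoter window and the length. The family and the gene lists were chosen with earlier results of these data known. Named were the 10 genes of the family with the smallest p among those called, the 3 largest changes each way, the 3 highest and 3 lowest levels per length, the untested gene, genes whose symbols mislead, MRPL10, all mitoribosomal subunits with other symbols, all mitochondrial mRNAs, SPNS2, MYC and up to 3 genes of the smallest p per other list; genes beyond these were chosen after their values were seen. One gene that this rule covers is not reported here.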

Additional observations from a re-analysis of the deposited data

How the results depend on the processing

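The family's lower calls (14) numbered 8 to 14 and its higher calls (1) 1 to 2 when 1 library was left out. They numbered 10 to 14 and 1 under the other fits. Its median log2 fold change stayed between -0.07 and -0.05, and the change of its summed level between -5.40% and -3.84%. With a replicate block, 12 genes fell and 1 rose, and 2723 features were called against 3263. Same-numbered libraries had correlations of 0.0312, 0.0375 and -0.0193, and the others had -0.0644 to 0.0375. SPNS2 libraries 1 and 2 correlated best with the empty vector library of the same number, and SPNS2 library 3 with empty vector library 1. Values this small cannot show whether the numbers pair the libraries. Over the related lists together, 8 genes rose in the main analysis, 13 with upper quartile scaling, 5 with DESeq2, 5 with the replicate block and 4 to 9 when 1 library was left out. The share of the family's promoters with an E-box was 1.45% and with the NRF1 motif 4.35% in the 150 bases nearest the start, against 6.05% and 8.39% of tested genes there. The spread of levels was 5.01 per coding length. Of 1079 values for 72 named genes, 995 kept the side of the threshold, 77 lost the call and 7 gained it. A change of sign was counted only where the gene was called in a fit, and 0 values changed sign in that way. Genes that were not called could change sign, as MRPL10 did, with log2 fold changes of -0.04 to 0.02 over the alternatives. Of 46 called named genes, 31 kept the call in every alternative. The causes were not tested. Changes of a few percent in genes of low count lie near the limit of these 6 libraries.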
